A study of Mus musculus with 6 samples.

Results

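The genes described here are the core regulators of the G1 phase of the cell cycle: the D-type cyclins Ccnd1, Ccnd2 and Ccnd3 with their kinases Cdk4 and Cdk6, the E-type cyclins Ccne1 and Ccne2 with their kinase Cdk2, the inhibitor Cdkn1b, and Rb1. They were chosen by name, and all 10 were present among the 41255 genes listed. Only 1 of them, Cdkn1b, encodes an inhibitor of cyclin-dependent kinases, and Rb1 encodes the substrate of these kinases. The mRNA came from Ba/F3, an interleukin-3-dependent lymphoid line of the mouse, engineered to carry human RPL10 either as the wild-type form (WT) or as the R98S mutant form seen in T-cell acute lymphoblastic leukemia. RPL10 is a protein of the large ribosomal subunit. Each group held 3 clones, WT clones 28, 29 and 36 and R98S clones 11, 13 and 35, with 1 library per clone. The human RPL10 cDNA was delivered by retrovirus, mouse Rpl10 was knocked down with a short hairpin RNA in both groups, and all cultures received cycloheximide shortly before lysis. Every clone descends from a single transduced cell, so that differences between clones and between RPL10 forms are measured on the same 6 cultures.

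In G1, D-type cyclins bind CDK4 or CDK6 and begin the phosphorylation of the retinoblastoma protein RB1, which holds E2F transcription factors inactive. Cyclin E with CDK2 continues this phosphorylation, after which E2F factors drive the genes of DNA replication, the E-type cyclins among them. The protein p27, encoded by Cdkn1b, binds cyclin-CDK complexes and restrains CDK2, and growth factors such as interleukin-3 act on this machinery through cyclin D synthesis and p27 loss. Much of this control lies in protein synthesis, degradation and phosphorylation, which mRNA levels do not show.

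The libraries held between 21786776 and 24204991 reads assigned to genes, and 11550 genes passed the expression filter and were tested. Values are normalized read counts, that is reads divided by a size factor of each library, and 3 reads, the floor for detection, correspond to 2.78 to 3.22 of these units. For mouse Rpl10, the target of the hairpin in both groups (chromosome X, 74270812 to 74273135, GRCm38), the normalized counts were 2853, 3156 and 1900 in WT and 3028, 1883 and 2617 in R98S clones, a log2 difference of -0.066 (adjusted p = 0.871). Of the 10 B-lineage precursor markers, 5 had at most 3 reads in every library, Pax5, Vpreb1, Igll1 and Cd24a among them, while Cd79a, Cd79b and Ptprc were present, so the lymphoid label rests on few of its markers. The summed B-lineage markers ranged from 10157 to 15417 in WT and from 5266 to 7294 in R98S clones. This sum is mostly Ptprc, the pan-leukocyte gene of CD45, which fell (log2 difference -1.33, adjusted p = 0.00894), while Cd79b was higher by 1.22 (adjusted p = 0.0617) and Cd79a had 0.20 (adjusted p = 0.449). For comparison, the summed 7 mast cell markers, mostly Gata2, ranged from 25038 to 29742 and from 13831 to 17409. Of these 7, Kit, Fcer1a and Tpsb2 had at most 3 reads in every library. Gata2 fell (log2 difference -0.86, adjusted p = 0.00666), while Ms4a2 had -0.57 (adjusted p = 0.464) and Cpa3 had 1.43 (adjusted p = 0.372). The 3 interleukin-3 receptor genes summed to between 87943 and 103977 in WT and between 130712 and 154304 in R98S clones. Nearly all of it came from the beta chains Csf2rb (log2 difference 0.53, adjusted p = 0.0509) and Csf2rb2 (0.62, adjusted p = 0.0178). The alpha chain, Il3ra, had a log2 difference of -0.18 (adjusted p = 0.432). The part of these marker differences in the results below was not tested. In bulk RNA of a clonal culture, fewer cells expressing a gene and less RNA per cell cannot be told apart.

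Of the 9 G1 genes whose mean over the libraries reached 50 normalized counts, 2 passed the test between R98S and WT clones. Ccne2 was higher in R98S clones by 1.72-fold in mean normalized count, and Cdkn1b was lower, at 0.721 of the WT level. The other gene, Ccnd1, was also called higher, but it was low in every library and entered the test only through its R98S clones, so that any call had to be in that direction, and its fold is given as a description. The D-type cyclin mRNA of these cells consisted almost wholly of Ccnd2 and Ccnd3. The test was limma on log2(normalized count + 1), two-sided, with Benjamini-Hochberg adjustment over all 11550 genes and a threshold of 0.1. Over all tested genes the share called was 23.9%, made up of 10.7% with higher and 13.1% with lower values in R98S. Of the 9 genes, 1 was called higher and 1 lower, which is not far from this background. Ccnd1 is left out of this count, because its call could only be upward. The median log2 difference of the 10 genes was 0.029, beside -0.011 over all genes tested.

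**Figure D1:**
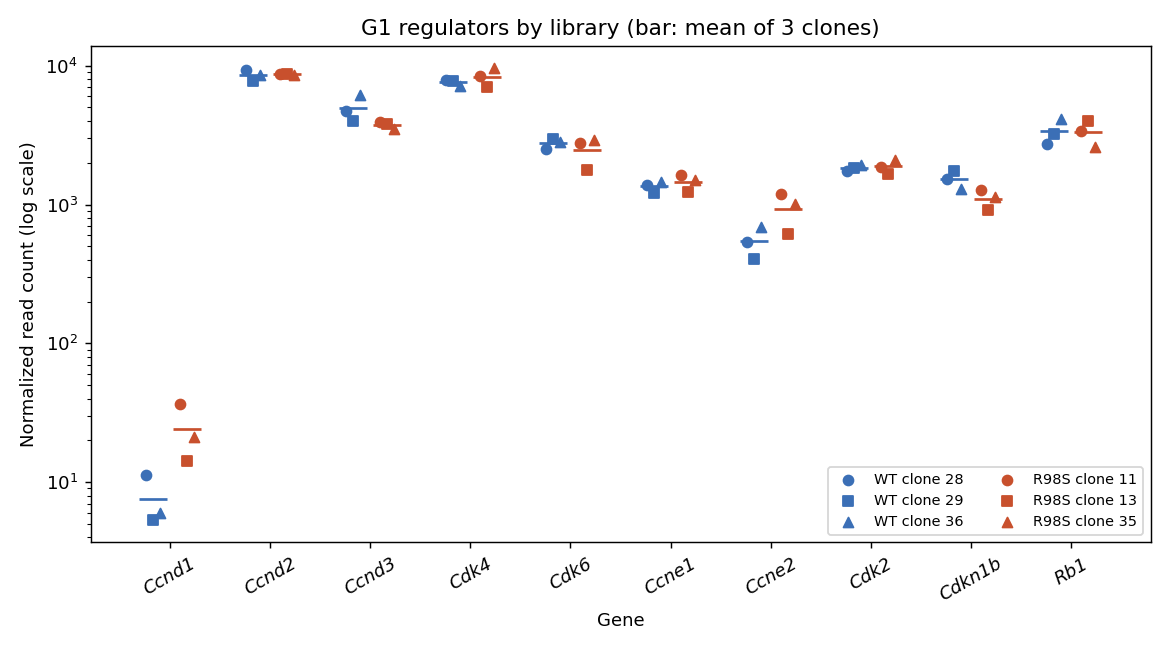
Normalized read count (log scale) of each G1 regulator in the 3 WT and 3 R98S libraries, with 1 point per clone and a bar at the mean of 3 clones. Ccnd1 lies far below the other genes, between 5.37 and 36.6, and the groups are apart for Ccnd1, Ccnd3 and Cdkn1b.

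The order of the levels was set by counts per kilobase of exon, so that genes of unequal length can be compared. Cdk4 was the most abundant, with a median over the 6 libraries of 2405 normalized counts per kilobase (lowest 2147, highest 2938). Ccnd2 followed at 921 (822 to 993), and neither range overlapped the next. Rb1 at 550, Ccne1 at 532 and Ccnd3 at 452 counts per kilobase had overlapping ranges and could not be ordered. Below them came Cdk2 at 297, Cdkn1b at 280, Cdk6 at 200 and Ccne2 at 186, whose neighbours overlapped as well. Ccnd1 was last at 2.71 counts per kilobase (1.14 to 7.77), apart from all others.

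Among the D-type cyclins, Ccnd2 had the highest level per kilobase of exon in all 6 libraries, an order that depends on the gene length used. Its gene lies on chromosome 6 from 127125162 to 127152193 on the minus strand (all positions are GRCm38). Normalized counts were 9347, 7733 and 8592 in WT clones (given here and below in the order 28, 29, 36), against 8735, 8727 and 8606 in R98S clones (in the order 11, 13, 35). The R98S clones all fell inside the WT range. The log2 difference was 0.026 (SE 0.10, 95% confidence interval -0.21 to 0.27, adjusted p = 0.887).

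Ccnd3 (chromosome 17, 47505051 to 47599691, plus strand) encodes the D-type cyclin on which lymphocyte precursors are known to depend. It stood at 4745, 3989 and 6168 in WT and at 3952, 3822 and 3500 in R98S clones. Every R98S clone was below every WT clone, although WT clone 29 and R98S clone 11 were separated by little. Such an absence of overlap was seen for 37.3% of all genes tested and for 3 of the 10 G1 genes, Ccnd1 among them. The mean was 4967 ± 1106 in WT and 3758 ± 233 in R98S (SD, n = 3), a log2 difference of -0.38 (SE 0.16, interval -0.75 to -0.016) that missed the threshold (adjusted p = 0.143). Leaving out WT clone 29 brought it past the threshold (log2 difference -0.53, adjusted p = 0.0816), and so did the DESeq2 test on recovered reads (adjusted p = 0.0993), within a range over all alternatives of 0.0816 to 0.291. Ccnd3 shares 361 exonic bases with Bysl, a ribosome biogenesis factor on the opposite strand, and whether the counting used strand is not given in the sources used here. Bysl itself was higher in R98S clones, with a log2 difference of 0.53 (adjusted p = 0.0490).

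Ccnd1 (chromosome 7, 144929931 to 144939925, minus strand) encodes the D-type cyclin of most epithelial and mesenchymal cells. Its normalized counts were 11.3, 5.37 and 6.0 in WT and 36.6, 14.3 and 21.3 in R98S clones, from 11, 5 and 6 reads and 39, 14 and 23 reads. All R98S clones were above all WT clones. The log2 difference was 1.52 (SE 0.48, interval 0.42 to 2.61, adjusted p = 0.0682). The WT mean of 7.55 ± 3.23 (SD, n = 3) lay below the filter of 10, so the gene was tested only through its R98S libraries. The call was lost without WT clone 29, WT clone 36, R98S clone 11 or R98S clone 35, with adjusted p between 0.130 and 0.198, within a range over all alternatives of 0.0485 to 0.198. The median log2 difference of the 30 nearest tested genes was also positive, at 0.40, and removing this regional shift left 1.13 (adjusted p = 0.129). Ccnd1 shares 1100 exonic bases with LTO1, listed here as Oraov1, on the opposite strand. Oraov1 had a mean of 287 normalized counts over the libraries, beside 15.8 for Ccnd1, and a log2 difference of 0.26 (adjusted p = 0.550). Whether reads of Oraov1 were counted for Ccnd1 was not tested.

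Expressed as a share of the 3 D-type cyclins per kilobase of exon, Ccnd2 made up 64.7%, 64.3% and 56.5% in WT clones and 67.0%, 67.9% and 69.4% in R98S clones. The R98S values were all above the WT values, by a margin smaller than the distance between WT clone 36 and the other WT clones. Ccnd3 accounted for 38.1% ± 4.67 in WT and 31.5% ± 1.15 in R98S (SD, n = 3). With the length of the longest transcript in place of all exons, Ccnd2 made up 54.5%, 54.1% and 45.9% in WT clones and 57.2%, 58.1% and 59.8% in R98S clones, and in WT clone 36 Ccnd3 was then the larger share at 54.1%. The choice of length leaves the difference between the genotypes on the log2 scale of the ratio as it is, but not the level. By exons, Ccnd1 contributed a mean of 0.108% in WT and 0.375% in R98S, so that its rise added little to the D-type cyclin mRNA. The ratio of Ccnd2 to Ccnd3 per kilobase of exon was 1.65 ± 0.303 in WT and 2.16 ± 0.119 in R98S, a log2 difference of 0.41. The exact two-sided permutation test gave p = 0.1, the smallest p that 3 clones against 3 allow, and 0.2 after adjustment over the 4 ratios compared. Without WT clone 36 the log2 difference of this ratio was 0.24.

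Both kinases that bind D-type cyclins were present throughout. Cdk4 (chromosome 10, 127063534 to 127067920, plus strand) was at 7892, 7735 and 7195 in WT and at 8466, 6977 and 9547 in R98S clones. R98S clone 13 was the lowest library and R98S clone 35 the highest, so the WT clones fell between them. The log2 difference was 0.12 (interval -0.18 to 0.42, adjusted p = 0.564). Cdk6 (chromosome 5, 3341485 to 3531008, plus strand), the kinase more typical of blood cells, was at 2519, 2961 and 2797 in WT and at 2788, 1784 and 2892 in R98S clones. A single library, R98S clone 13, stood below all others. The log2 difference of -0.18 (interval -0.61 to 0.25, adjusted p = 0.547) turned to 0.045 without that clone. Cdk4 exceeded Cdk6 per kilobase by 11.9 ± 1.35-fold in WT and 14.7 ± 1.93-fold in R98S (SD, n = 3). The groups overlapped (exact permutation p = 0.2, adjusted 0.267, where the smallest possible p is 0.1). Cdk4 shares 641 exonic bases with Tspan31 on the opposite strand, whose log2 difference was -0.13 (adjusted p = 0.469).

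Of the E-type cyclins, Ccne2 passed the threshold and Ccne1 did not, which does not by itself show that they differ from each other. Ccne1 (chromosome 7, 38097984 to 38107534, minus strand) had normalized counts of 1390, 1217 and 1441 in WT and 1623, 1238 and 1495 in R98S clones. The groups overlapped, and the log2 difference was 0.10 (SE 0.14, interval -0.21 to 0.41, adjusted p = 0.649). Ccne2 (chromosome 4, 11191351 to 11204779, plus strand), a paralog that also activates CDK2, had 541, 407 and 684 in WT and 1185, 616 and 1001 in R98S clones. R98S clones 11 and 35 were above every WT clone, while R98S clone 13 was below WT clone 36. The mean was 544 ± 138 in WT and 934 ± 290 in R98S (SD, n = 3), a log2 difference of 0.76 (SE 0.27, interval 0.14 to 1.38, adjusted p = 0.0968).

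The Ccne2 call was close to the threshold. It was lost without WT clone 28, WT clone 29, R98S clone 11 or R98S clone 35, with adjusted p from 0.196 to 0.271, and was firmer without R98S clone 13, where the log2 difference was 1.03 (adjusted p = 0.0287). Over all alternatives the adjusted p ran from 0.0241 to 0.271. Ccne2 shares 609 exonic bases with Ints8, a subunit of the Integrator complex on the opposite strand, and Ints8 was also higher in R98S clones, with a log2 difference of 0.63 (adjusted p = 0.0253). The 30 tested genes nearest to Ccne2 had a median log2 difference of 0.29, and with this regional shift removed the value for Ccne2 was 0.49 (adjusted p = 0.216). The part of the shared exons and of the neighbourhood in the difference was not tested further.

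Per kilobase of exon, Ccne1 exceeded Ccne2 by 3.37-, 3.92- and 2.77-fold in WT clones and by 1.80-, 2.64- and 1.96-fold in R98S clones. The groups did not overlap, though WT clone 36 and R98S clone 13 lay next to each other. The log2 difference of the ratio was -0.66 (exact two-sided permutation p = 0.1, adjusted 0.2). This test cannot go below 0.1 with 3 clones against 3, so it cannot decide whether the pair differed. Ccne1 remained the more abundant E-type cyclin in all 6 libraries. Cdk2 (chromosome 10, 128697939 to 128705031, minus strand), the partner of both, was at 1747, 1820 and 1936 in WT and at 1876, 1672 and 2097 in R98S clones. The ranges overlapped almost fully, and the log2 difference was 0.032 (interval -0.24 to 0.30, adjusted p = 0.878).

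**Figure D2:**
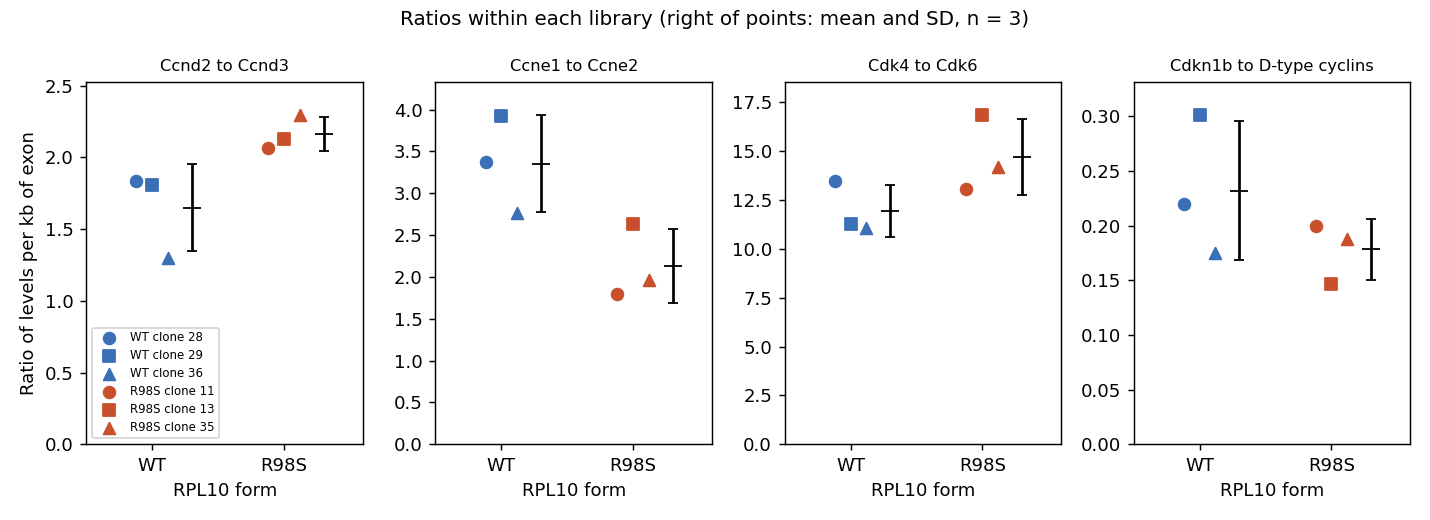
Ratios between G1 regulators within each library, from normalized counts per kilobase of exon, with 1 point per clone and the mean and SD of 3 clones beside them. The Ccnd2 to Ccnd3 ratio is higher in every R98S clone and the Ccne1 to Ccne2 ratio is lower, while the Cdk4 to Cdk6 ratio and the ratio of Cdkn1b to the summed D-type cyclins overlap between the groups.

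Cdkn1b (chromosome 6, 134920401 to 134925513, plus strand) fell in R98S clones. Its normalized counts were 1536, 1750 and 1290 in WT and 1262, 913 and 1125 in R98S clones. All R98S clones were below all WT clones, but WT clone 36 and R98S clone 11 nearly met. The mean went from 1525 ± 230 to 1100 ± 176 (SD, n = 3), a log2 difference of -0.47 (SE 0.16, interval -0.85 to -0.10, adjusted p = 0.0871). The call was lost without WT clone 28, WT clone 29, R98S clone 13 or R98S clone 35, with adjusted p between 0.154 and 0.255, and over all alternatives the lowest value was 0.0502. Its exons overlap no other annotated gene, and the 30 nearest tested genes had a median of -0.15. Removing that shift gave a log2 difference of -0.38 (adjusted p = 0.148). Relative to the summed D-type cyclins, Cdkn1b stood at 0.232 ± 0.0637 in WT and 0.178 ± 0.0278 in R98S, and the groups overlapped (exact permutation p = 0.3, also after adjustment).

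Rb1 (chromosome 14, 73183673 to 73325822, minus strand) did not pass the test, and its groups overlapped. Normalized counts were 2746, 3238 and 4142 in WT and 3378, 3997 and 2609 in R98S clones, and the highest library was WT clone 36 and the lowest R98S clone 35. The log2 difference was -0.022 (SE 0.19, interval -0.47 to 0.42, adjusted p = 0.953). Lpar6, a lysophosphatidic acid receptor gene that lies within Rb1 on the opposite strand and shares 408 exonic bases with it, was higher in R98S clones by 0.79 on the log2 scale (adjusted p = 0.0581). Rcbtb2, also on the opposite strand, shares 488 exonic bases with Rb1 and had a log2 difference of 0.53 (adjusted p = 0.117).

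**Figure D3:**
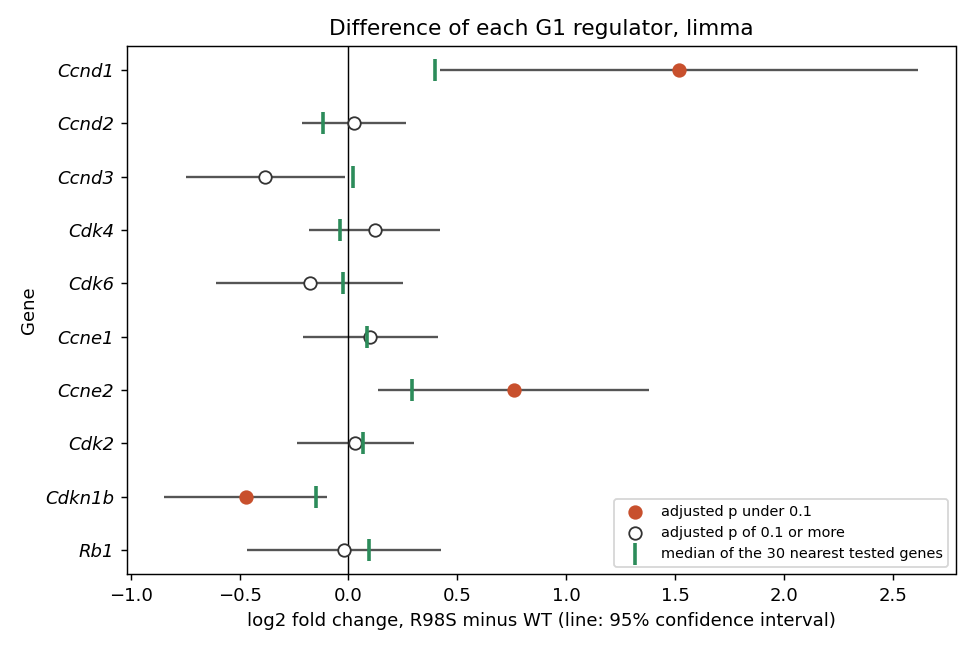
Log2 difference in normalized count (R98S minus WT) of each G1 regulator with its 95% confidence interval from limma, filled where the adjusted p was under 0.1, with the median of the 30 nearest tested genes as a tick. Ccnd1 (1.52), Ccne2 (0.76) and Cdkn1b (-0.47) are filled, and for each of them the tick lies on the same side of 0 as the gene. Ccnd1 entered the test only through its R98S clones, so its call could only be upward.

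The 6 clones also differed among themselves across these genes. R98S clone 13 was the lowest of the R98S clones for 7 of the 10 genes, namely Ccnd1, Cdk4, Cdk6, Ccne1, Ccne2, Cdk2 and Cdkn1b. R98S clone 11 was the highest of its group for 6 of them. Among WT clones, clone 29 was the lowest for 5 genes and clone 36 the highest for 5. These orders were not tested. The 3 calls, and Ccnd3, were followed through every setting tried.

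**Figure D4:**
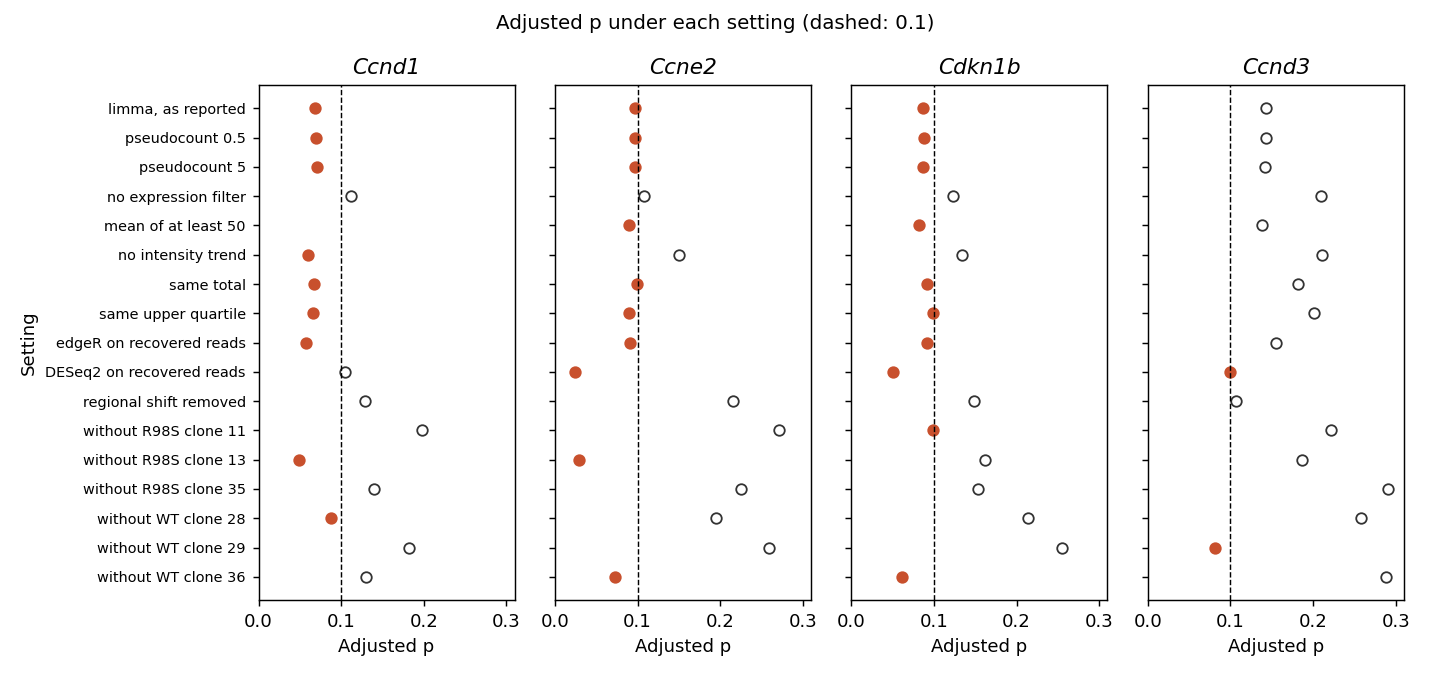
Adjusted p of Ccnd1, Ccne2, Cdkn1b and Ccnd3 under each alternative filter, scaling, test or omitted clone, with the threshold of 0.1 dashed. The points of the first 3 genes fall on both sides of the line, and Ccnd3 is under the line with DESeq2 (0.0993) and without WT clone 29 (0.0816).

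Other genes of the pathway were read from lists of 65 genes, of which 63 were tested, 5 were called higher in R98S, 4 were called lower and 54 did not pass. That is 14.3% called, beside 23.9% of all genes tested, with a median log2 difference of -0.059. Of the other CDK inhibitors, 5 of 6 were tested, and 1 passed. Cdkn2d, which encodes the CDK4 and CDK6 inhibitor p19, fell from 954 ± 146 to 453 ± 108 (SD, n = 3), a log2 difference of -1.09 (SE 0.19, adjusted p = 0.0117). Cdkn2c, encoding the related p18, had a log2 difference of -0.46 (adjusted p = 0.357), and Cdkn1a, encoding p21, had 0.22 (adjusted p = 0.573) at a high level of 7093 in WT and 8229 in R98S clones.

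Of the 12 pocket proteins, E2F and DP factors, 1 passed. E2f2, an activator E2F, fell from 1203 ± 371 to 500 ± 65.9 (SD, n = 3), a log2 difference of -1.22 (SE 0.24, adjusted p = 0.0148). E2f3, another activator, had -0.021 (adjusted p = 0.951) and the dimerization partner Tfdp1 had -0.046 (adjusted p = 0.826). The median of this list was -0.17. Another list held 7 genes of the CDK-activating kinase and of the enzymes acting on inhibitory phosphorylation. Wee1, a kinase that places this phosphorylation, rose from 453 ± 31.4 to 794 ± 175, a log2 difference of 0.79 (SE 0.18, adjusted p = 0.0254). The other 6 did not pass, Cdk7 (-0.059, adjusted p = 0.781) and Mnat1 (-0.11, adjusted p = 0.517) among them.

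Of 15 ubiquitin ligase components that act on G1 regulators, 1 passed. Cul4a, a scaffold of ligases that target the licensing factor CDT1, fell from 2912 ± 118 to 1974 ± 167 (SD, n = 3), a log2 difference of -0.56 (SE 0.11, adjusted p = 0.0136). Rnf123, a subunit of a ligase for p27, had 0.022 (adjusted p = 0.916), and Skp1a, an adaptor of the SCF ligases, had -0.050 (adjusted p = 0.752). Of the 4 tested S phase and mitotic cyclin genes with Cdk1, Ccna2 rose and Ccnb2 fell. Ccna2, encoding cyclin A, went from 6000 ± 1296 to 9129 ± 1247, a log2 difference of 0.62 (SE 0.17, adjusted p = 0.0440). It overlaps Exosc9 on the opposite strand, whose own log2 difference was 0.48 (adjusted p = 0.0629). Ccnb2, encoding a mitotic cyclin, went from 4562 ± 1072 to 2825 ± 487, a log2 difference of -0.68 (SE 0.19, adjusted p = 0.0468). Ccnb1 and Cdk1 had log2 differences of -0.21 (adjusted p = 0.252) and -0.30 (adjusted p = 0.165).

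**Figure D5:**
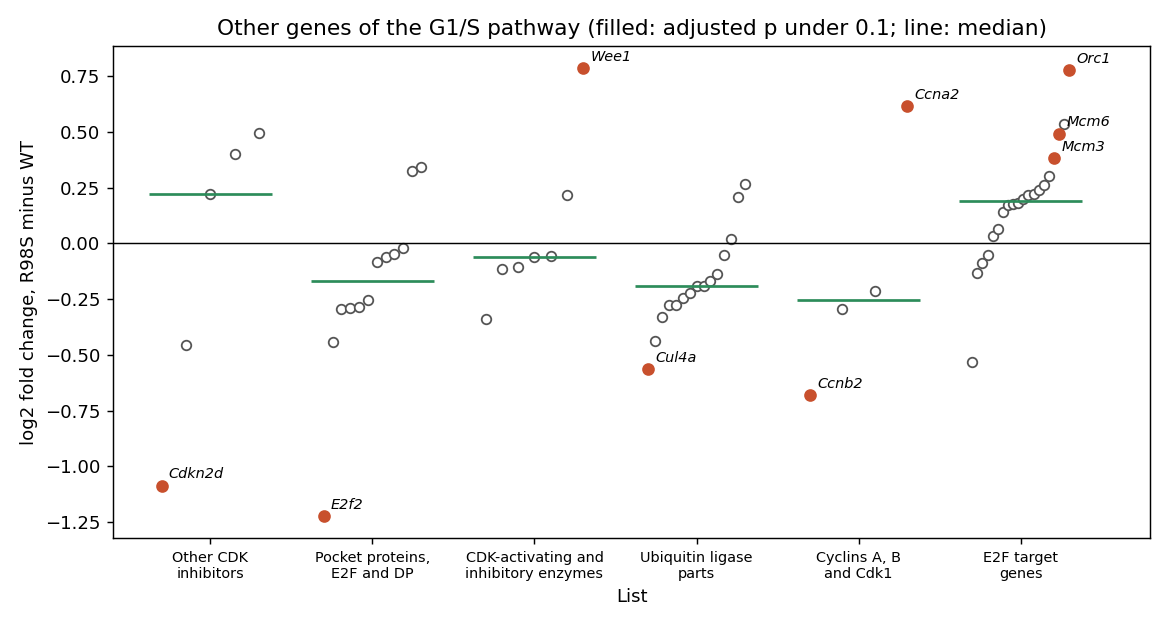
Log2 difference in normalized count (R98S minus WT) of each tested gene in 6 lists of the G1/S pathway, filled where the limma adjusted p was under 0.1, with a line at the median of each list. Filled points number 1 in each of the lists of inhibitors, E2F factors, activating enzymes and ligase components, 2 among the cyclins and 3 among the E2F targets, whose median is 0.19.

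Of 20 E2F target genes, most with roles in DNA replication, 3 were called higher and 17 did not pass, and the median was 0.19. That is 15% called higher, beside 10.7% of all genes tested. Of the log2 differences 16 were positive and 4 negative, the lowest that of Rrm2 (-0.53, adjusted p = 0.114). Rrm2 was called lower with DESeq2, without WT clone 29 and with the regional shift removed. Orc1, of the origin recognition complex, rose from 488 ± 165 to 807 ± 3.75 (SD, n = 3), a log2 difference of 0.78 (adjusted p = 0.0473). The helicase subunits Mcm6 and Mcm3 rose by 0.49 (adjusted p = 0.0431) and 0.38 (adjusted p = 0.0513) on the log2 scale. Cdc45 and Cdt1 had log2 differences of 0.033 (adjusted p = 0.879) and -0.052 (adjusted p = 0.798).

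WT clone 36 stood apart from the other WT clones on this list. It was the highest WT clone for 20 of 20 targets, and it was below all R98S clones for 3 of them, against 14 for WT clone 28 and 13 for WT clone 29. It was above all R98S clones for 7, against 1 for WT clone 28 and 1 for WT clone 29. How often the same held over all genes tested was not counted, so these counts cannot be called particular to the E2F targets. Without WT clone 36 the pathway genes called higher numbered 12, among them Mcm3, Mcm4, Mcm6, Cdc6, Orc1 and Rrm1, and those called lower 7. Leaving out the WT clone that was highest for all 20 targets lowers their WT mean, so added upward calls among them are no separate evidence. Over all genes tested, 21.7% were called in that fit, of which 44.0% were higher. Without WT clone 28, WT clone 29 or R98S clone 11, 1 gene, Wee1, was called higher, and without R98S clone 13 the number was 8. The share of all genes called moved as well, to 11.4%, 12.6% and 13.5% without WT clone 28, WT clone 29 and R98S clone 11, and to 27.8% without R98S clone 13. Wee1, Cdkn2d, E2f2 and Cul4a were called with each of the 6 clones left out in turn. The proliferation state of the cultures at harvest was not measured here, and its part in these values was not tested.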

How the data were processed

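Polyadenylated RNA of 3 WT and 3 R98S Ba/F3 clones was made into stranded libraries and sequenced. The submitters' processing notes name Bowtie2, TopHat, SAMtools, HTSeq and DESeq2 and the mm10 (GRCm38) genome, while the annotation and the strand setting of the counting are not given in the sources used here. Each deposited value is a normalized signal for 1 gene symbol: the authors' read count divided by the DESeq2 size factor of each library. In all libraries 100% of the values were whole multiples of 1 read within a tolerance of 0.01, although the step of WT clone 36, at 1.00076, is too near 1 to tell from rounded values. Reads recovered in this way gave 2746 called genes with edgeR (4.0.16, quasi-likelihood, TMM) and 3105 with DESeq2 (1.42.0, Wald test), beside 2755 with limma.

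Groups were taken from the labels, and no per-sample column was left unused (0 columns). Differences were tested with limma (3.58.1, R 4.3.3) with an intensity trend on log2(normalized count + 1), which understates changes of low genes, for genes with a mean of at least 10 over the 6 libraries. The adjusted p threshold of 0.1 is the false discovery rate of the study. The clones are the replicates, so each limma p-value sets the difference between the groups against the spread between clones. That spread is estimated with information shared across genes. Ratios used the union of exons of the GENCODE annotation and exact permutation tests. Genes named were all 10 members, Rpl10, and from each pathway list up to 4 called genes with a mean of at least 100 and the largest log2 difference, and up to 2 genes with a mean of at least 1000 and the smallest. Rrm2 was named besides, as the lowest log2 difference among the E2F targets. Members and lists were chosen with earlier results of these data known. Alternatives were pseudocounts of 0.5 and 5, no filter or a mean of at least 50, scaling to the same total or upper quartile, no trend, an adjusted p under 0.05, each clone left out, edgeR, DESeq2, and subtraction, library by library, of the median deviation of a gene's 30 nearest tested neighbours. Depth was similar in all libraries and limits precision only for Ccnd1, and counting error is the only error that the floor of 3 reads covers.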

Additional observations from a re-analysis of the deposited data

How the results depend on the processing

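The 3 calls among the G1 regulators sit near the threshold. That of Ccnd1, which entered the test only through its R98S clones, could only be upward and is counted among those called higher. Of the 2 called higher with limma, only Ccne2 was left with DESeq2 and with a mean of at least 50, which removes Ccnd1. Only Ccnd1 was left with no trend. With no expression filter, with the regional shift removed and at an adjusted p under 0.05, 0 were left. Of the 1 called lower, 0 were left with no filter, no trend, the regional shift removed and an adjusted p under 0.05, and with DESeq2 the number was 2. At an unadjusted p under 0.05, limma had 2 higher and 2 lower, edgeR 2 and 2, DESeq2 2 and 2, no filter 2 and 2, no trend 2 and 1, and the regional shift removed 1 and 2. Leaving out each clone gave 0 to 2 called higher and 0 to 1 called lower, while the share of all genes called ran from 11.4% to 27.8% and was 8.94% with no filter. Pathway genes called higher, 5 with limma, numbered 8 with the regional shift removed and from 1 to 12 with a clone left out. With the regional shift removed, 4 of the 5 kept the call and Mcm3 lost it. Those called lower, 4 with limma, numbered 8 with DESeq2 and from 3 to 7 with a clone left out. The log2 differences of uncalled genes near 0 changed sign for Rb1 with the same upper quartile (0.019) and for Cdk2 with the regional shift removed (-0.018). With a clone left out they spanned 0 for Rb1 (-0.16 to 0.14), Cdk2 (-0.049 to 0.11), Ccnd2 (-0.045 to 0.092) and Cdk6 (-0.30 to 0.045). Beyond the effect of fewer samples or genes, the cause was not tested. Of the values of single G1 regulators under all alternatives, 135 kept their direction and their side of the threshold, 24 lost and 2 gained the call, and 8 changed sign. All 24 losses were among the 3 called genes. Their calls held in 8 of 16 alternatives for Ccnd1, 9 of 17 for Ccne2 and 9 of 17 for Cdkn1b. The 4 ratios kept their direction in every setting run, although no exact test on them can pass the threshold with 3 clones a group or fewer. Depth limits Ccnd1 alone. No paired analysis was possible because no clone number occurs in both groups.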

Other observations

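The neighbourhood of Ccna2 was looked at after its values were seen. Ccna2 (chromosome 3, 36564865 to 36572150, minus strand, GRCm38) lies 992 bases downstream of Bbs7 (36573142 to 36613477, minus strand), a subunit of the BBSome. Bbs7 had normalized counts of 2.05, 2.15 and 6.0 in WT and 8158, 5909 and 6098 in R98S clones. Ccna2 had 5364, 5145 and 7492 in WT and 10503, 8069 and 8814 in R98S clones, so that the groups did not overlap. Exosc9, an exosome subunit that overlaps Ccna2 on the opposite strand (36552606 to 36565727), had 595, 568 and 594 in WT and 990, 727 and 760 in R98S clones. On the far side of Exosc9, Anxa5 was lower in R98S clones by a log2 difference of -0.77, and the 30 tested genes nearest to Ccna2 had a median of 0.092. Whether the Ccna2 value is tied to these neighbours was not tested.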
